A study of Glycine max with 16 samples.

Results

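A set of 280 soybean (Glycine max) genes had higher transcript levels in air-dried leaves of the transgenic lines A004A and A005B than in air-dried leaves of line B010C and of the null line. The genes were chosen by their measured values in dehydrated leaves. For each gene the lower of the A004A and A005B levels, on the log2(RPKM + 1) scale, lay at least 1 above the higher of the B010C and null levels, which is a gap of at least 2-fold on that scale. RPKM counts reads per kilobase of gene and scales them to the mapped reads of a library, and the values are those the authors deposited. The 280 genes were 0.814% of the 34400 genes that reached 1 RPKM in at least 2 columns, out of 56044 genes in the table. Of the 280, 40 reached 1 RPKM in dehydrated A004A and A005B alone, so they could only have entered as genes that differ. Applied without line A004A, A005B, B010C or null the rule asks less, and held for 503, 376, 606 or 438 genes. The mirrored rule, with A004A and A005B lower, held for 236 genes. Because the dehydrated columns chose the genes, their dehydrated values are given as a description without a test.

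The study profiled leaf RNA of lines named as over-expressing GmWRKY54 (A004A, A005B and B010C) and of control plants called null, whose line name is B001A. Seeds were germinated on soil in a greenhouse, and at 2 weeks the trifoliate leaves were taken either after 6 h of drying in air or from well-watered plants. The labels list 16 samples in 8 groups of 2, but the table holds 8 columns, 1 for each line and treatment, so no spread within a group could be computed. The groups, each with 1 column, were dehydrated A004A, A005B, B010C and null, and watered A004A, A005B, B010C and null. The promoter driving the transgene, the number of independent insertions and the number of plants behind a sample are nowhere stated in the labels. The labels mention no watered group held for the same time, so drying and elapsed time cannot be told apart.

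WRKY proteins are a large family of plant transcription factors, named for a conserved amino acid motif beside a zinc finger. They bind W-box elements in promoters and are best known for roles in defence, senescence and responses to drought and salt. When a cut or uprooted leaf loses water, abscisic acid accumulates, stomata close, and large sets of stress genes are induced while genes of growth and photosynthesis are repressed.

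No table at hand pairs the identifiers with gene names, so the genes are given by identifier, without function, and the leaf label could not be checked against leaf genes. For the same reason the level of GmWRKY54 could not be read, and the split of the lines is that of the rule, not one made by the labels. Sums of RPKM ranged from 636011 to 818267 over the columns, lowest in dehydrated A004A and highest in dehydrated B010C, and the reads behind a value are unknown. Among the 280 genes, 39 stood at least 2-fold higher in watered A004A and null than in watered A005B and B010C. Of all tested genes 0.288% did so. The 39 genes thus pair null with A004A when watered and A005B with A004A when dried. In 50 of the 280, watered A004A stood at least 2-fold above all 3 other watered columns, that of null included (0.392% of all tested genes). A gene can be in both counts. In 2 of the 280, Glyma.10G011300 and Glyma.01G082900, watered A004A and A005B stood at least 2-fold above watered B010C and null (0.0669% of all tested genes). These 2 genes stood at 73.0 and 6.93 RPKM in watered A005B, against 11.5 and 0 RPKM in watered null. Whether the labels of the watered null and A005B columns were exchanged was not tested. Each count for A005B or null that uses its watered column rests on that label. The comparison of watered A004A with watered B010C, and the drying responses of A004A and B010C, use neither column. In bulk leaves, fewer cells of a type and less RNA per cell cannot be told apart.

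In dried leaves the 280 genes ranged from barely detected to abundant. Their median was 5.75 RPKM in A004A and 7.22 RPKM in A005B, against 0.829 RPKM in B010C and 0.852 RPKM in null. The highest values were 549.7 RPKM in A004A and 836 RPKM in A005B, against 243 RPKM in B010C and 169 RPKM in null, all for Glyma.13G333100. Summed, the genes made up 0.904% of all RPKM in dehydrated A004A and 1.09% in dehydrated A005B, against 0.171% in B010C and 0.176% in null. In 146 genes both A004A and A005B reached 5 RPKM, and in 22 both reached 50 RPKM. At the other end, 25 genes were listed at 0 in both dehydrated B010C and null, which held for 0.465% of all tested genes.

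**Figure D1:**
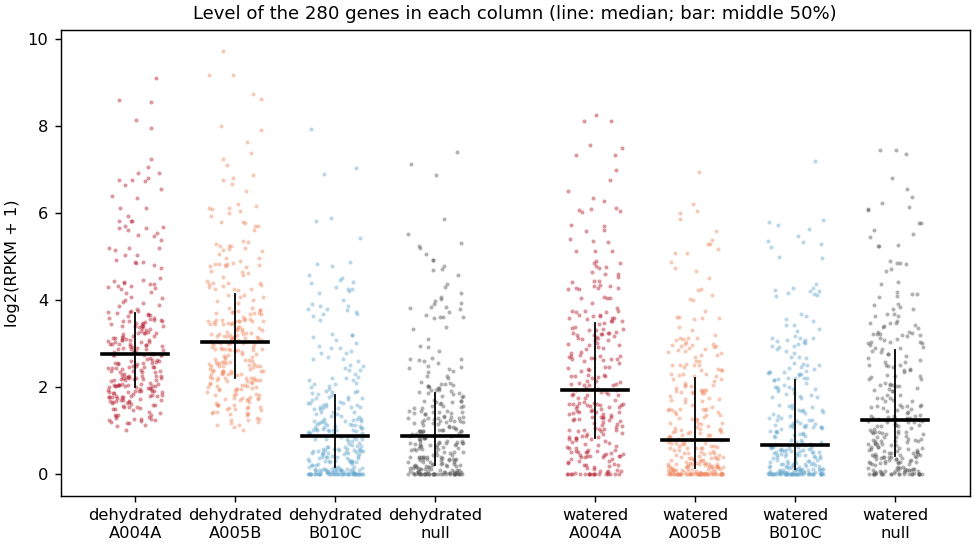
Level of each of the 280 genes, as log2(RPKM + 1), in the 8 columns, with 1 point per gene, a thick line at the median and a bar over the middle 50%. Dehydrated A004A and A005B stand highest because the rule chose the genes that way. Among the watered columns, which the rule did not use, the median is highest in A004A (1.93), lowest in B010C (0.69) and in between in A005B (0.80) and null (1.26).

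The size of the gap varied widely. Its median was 1.39 on the log2 scale, or 2.62-fold, and the widest was 5.50. The gap reached 4-fold in 47 genes and 8-fold in 17. Just inside the threshold, Glyma.03G194200, with a gap of 1.004, stood at 3.12 RPKM in dehydrated A004A and 3.95 RPKM in A005B, against 1.05 RPKM in B010C and 0.657 RPKM in null. Just outside it, Glyma.19G035800, with a gap of 0.999, stood at 3.11 and 3.49 RPKM in dehydrated A004A and A005B, against 0.882 RPKM in B010C and 1.06 RPKM in null. There were 46 genes with a gap of 1 to 1.1 and 58 with a gap of 0.9 to 1, so the threshold cuts through a continuous range. With a pseudocount of 0.1 in place of 1, which widens the gaps of low genes, the rule held for 690 genes. Within each side of the rule a few genes also differed. Dehydrated A004A was at least 2-fold above dehydrated A005B in 5 of the 280 genes and below it in 10, as were 0.674% and 0.974% of all tested genes, and the other 265 were within 2-fold. Dehydrated B010C was above dehydrated null in 4 and below it in 3, as were 1.97% and 0.985% of all tested genes.

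The watered columns were not used to choose the genes, and there the lines fell in another order. Many of the 280 genes stood higher in watered A004A than in the other watered columns. The medians of watered A005B and watered B010C lay close together. The median was 2.81 RPKM in watered A004A and 0.742 RPKM in watered A005B, against 0.609 RPKM in watered B010C and 1.39 RPKM in watered null, where the median of all tested genes lay between 5.82 and 6.04 RPKM. A004A was the highest of the 4 watered columns in 178 genes, or 63.6%, and the lowest in 13, where it was so in 23.5% and 28.5% of all tested genes. B010C was the lowest in 103 genes and A005B in 100, which held for 21.9% and 21.6% of all tested genes.

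Line by line, watered A004A was at least 2-fold above watered A005B in 102 of the 280 genes, or 36.4%, and below it in 2, where 1.4% and 1.89% of all tested genes were called. Against watered B010C it was higher in 103 and lower in 2, with 1.65% and 1.56% of all tested genes. Against watered null it was higher in 55 and lower in 3, with 0.849% and 1.54% of all tested genes. Watered A005B was at least 2-fold above watered B010C in 9 genes and below it in 4, as were 0.901% and 0.549% of all tested genes, and within 2-fold of it in the other 267. Watered A005B was at least 2-fold below watered null in 46 genes and above it in 7, and 1.25% and 1.03% of all tested genes were so. Watered B010C was below watered null in 51 and above it in 3, with 1.09% and 0.558% of all tested genes. These comparisons are between single columns, with no replicate check. The comparisons with A004A share its watered column, and those with null share that of null.

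**Figure D2:**
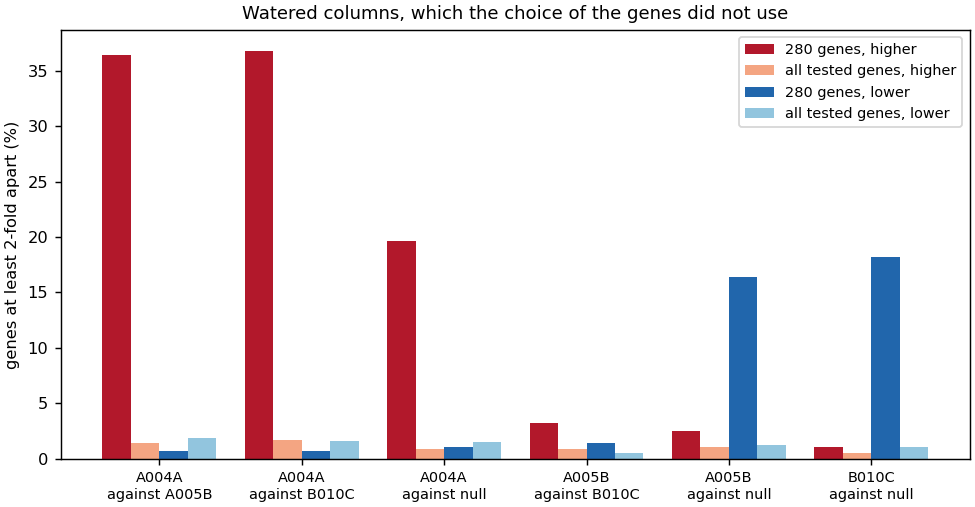
Percentage of the 280 genes, and of all 34400 tested genes, that were at least 2-fold higher or lower in each pair of watered columns on the log2(RPKM + 1) scale. The tall bars are A004A above A005B (36.4%), above B010C (36.8%) and above null (19.6%), and A005B and B010C below null (16.4% and 18.2%), where the bars for all tested genes stay under 2%.

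Watered A004A stood at least 2-fold above both watered A005B and watered B010C in 95 of the 280 genes, or 33.9%, where 0.916% of all tested genes did. These 95 were 30.2% of the 315 tested genes with that watered pattern. The other 220 genes of the pattern did not meet the rule in dried leaves. In 117 of those 220, or 53.2%, dehydrated A004A and A005B nevertheless both lay above dehydrated B010C and null, where 17.8% of all tested genes outside the 280 did so. In 39 of the 95, watered null was at least 2-fold above A005B and B010C as well, which held for 0.288% of all tested genes. In 50 genes of the 280, watered A004A was at least 2-fold above all 3 other watered columns, where 0.392% of tested genes were.

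Glyma.09G278000 had the widest gap. In dried leaves it stood at 282 RPKM in A004A and 570.1 RPKM in A005B, against 3.04 RPKM in B010C and 5.28 RPKM in null. In watered leaves it stood at 274 RPKM in A004A and 4.74 RPKM in A005B, against 4.1 RPKM in B010C and 45 RPKM in null. Its level in A004A was thus 1.03 times as high dried as watered, and in A005B 120 times as high. Glyma.10G043100, the next widest, stood at 40.6 RPKM in dried A004A and 67.5 RPKM in dried A005B, was listed at 0 in dried B010C and stood at 0.107 RPKM in dried null. Watered, it stood at 63.9 RPKM in A004A and was under 0.2 RPKM in the other 3 lines, at 0.14 RPKM in A005B, 0.085 RPKM in B010C and 0.0601 RPKM in null. So both genes were high in 3 of 8 columns, those of dried A004A, dried A005B and watered A004A, with null intermediate for Glyma.09G278000 when watered.

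The same 3 columns were high for Glyma.13G130600. Its values were 34.5 RPKM in dried A004A and 54.2 RPKM in dried A005B, against 0.17 RPKM in dried B010C and 0.433 RPKM in dried null, and 47.4 RPKM in watered A004A, 0.402 RPKM in watered A005B, 0.0664 RPKM in watered B010C and 1.81 RPKM in watered null. Glyma.15G239200, one of the most abundant of the set, was instead high in watered null too. It stood at 246 RPKM in dried A004A and 389 RPKM in dried A005B, against 18.8 RPKM in dried B010C and 26.6 RPKM in dried null. Watered, it stood at 187 RPKM in A004A and 17.7 RPKM in A005B, against 6.61 RPKM in B010C and 173 RPKM in null. Glyma.10G207000 was the clearest case of this kind. It stood at 21.9 RPKM in dried A004A and 23.9 RPKM in dried A005B and at 19.1 RPKM in watered A004A and 36.8 RPKM in watered null, and was listed at 0 in the other 4 columns.

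**Figure D3:**
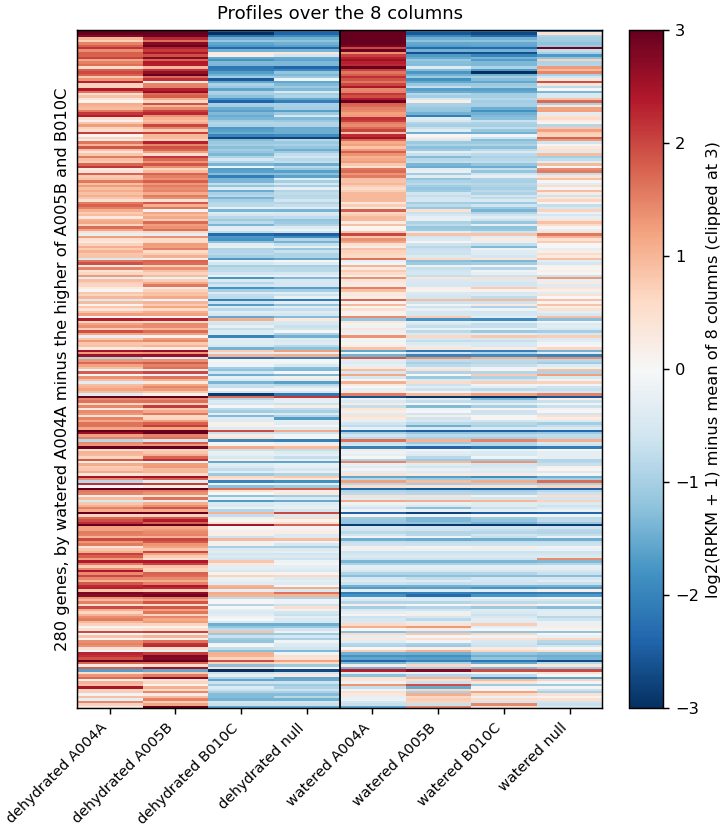
Profiles of the 280 genes over the 8 columns, as log2(RPKM + 1) minus the gene's mean over the columns, with genes ordered by watered A004A minus the higher of watered A005B and B010C. At the top, watered A004A is as red as dried A004A and A005B, and watered null is mixed. Lower down the 4 watered columns are pale or blue for many genes. They are red for genes that were higher watered than dried in all 4 lines, such as Glyma.12G101800.

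The line contrast of the rule was then tested in the watered columns alone, with A004A and A005B against B010C and null as 2 lines on each side. In limma (log2 scale, two-sided, Benjamini-Hochberg adjustment over 34400 genes), 0 genes passed an adjusted p of 0.05. With p left unadjusted, 749 genes were higher and 880 lower at a threshold of 0.05, or 2.18% and 2.56% of those tested, and of the 280 genes 7 were higher and 4 lower. Without a trend on mean expression there were likewise 0 adjusted calls, and 1667 genes (4.85%), 10 of them among the 280, passed unadjusted. Watered A004A and A005B both lay above both of the other lines in 34 of the 280 genes, or 12.1%, and both below them in 17, or 6.07%, where 18.1% and 17.2% of all tested genes did so. A fit over 4 columns has 2 residual degrees of freedom, so the lack of calls does not show that the lines were alike.

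A watered separation of at least 2-fold, by the same rule as in dried leaves, was found for 2 of the 280 genes, Glyma.10G011300 and Glyma.01G082900, and for 23 of all tested genes (0.0669%). The opposite separation was found for 0 of the 280 genes and for 0.0291% of all tested genes. Comparing watered A004A with watered B010C alone, without the watered null and A005B columns, gave the 103 genes counted above. With 1 line fewer the rule asks less. The 2 genes became 52 without line A005B (179 of all tested genes), 5 without A004A (154), 3 without B010C (74) and 7 without null (100). The count thus rose most without A005B. The reason for the uneven rise was not tested. Glyma.10G011300 stood at 119 RPKM in dried A004A and 238 RPKM in dried A005B, against 18.0 RPKM in dried B010C and 11.7 RPKM in dried null. Watered, it stood at 51.1 RPKM in A004A and 73.0 RPKM in A005B, against 9.05 RPKM in B010C and 11.5 RPKM in null. The watered difference was 2.47 ± 0.23 (SE) on the log2 scale, with an adjusted p of 0.854 in limma. For this gene A004A and A005B did not overlap with B010C and null in either treatment (in dried leaves this was a condition of the choice). It was listed as a possible identifier of GmWRKY54, but no source at hand pairs them.

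Glyma.01G082900 was the one gene of the 2 that was listed at 0 in B010C and null in both treatments. It stood at 2.88 RPKM in dried A004A and 1.2 RPKM in dried A005B, and at 4.26 RPKM in watered A004A and 6.93 RPKM in watered A005B. Its watered difference was 2.69 ± 0.23 (SE) on the log2 scale (limma, adjusted p = 0.757).

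Dried leaves were then set against watered leaves within each line, on the log2(RPKM + 1) scale. The dehydrated values were used by the rule, so these responses are a description. In A004A, 123 of the 280 genes stood 2-fold or more above their watered level in dried leaves and 42 stood as far below it, where 16.7% and 28.3% of all tested genes were. In A005B, 221 were higher and 9 lower, with 17.7% and 23.7% of all tested genes. In B010C, 42 were higher and 50 lower, with 17.6% and 23.4% of all tested genes. In null, 33 were higher and 86 lower, with 15.8% and 17.9% of all tested genes. The counts for A005B and null rest on the labels of their watered columns. With a pseudocount of 0.1 the shares higher in dried leaves turned from below to above those of all tested genes in 2 lines, with 78 genes (27.9%) in B010C and 65 (23.2%) in null, against 20.9% and 19.5% of all tested genes. The median response on the log2 scale was 0.75 in A004A, 1.92 in A005B, 0.00 in B010C and -0.37 in null, against -0.30, -0.16, -0.17 and -0.06 for all tested genes.

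**Figure D4:**
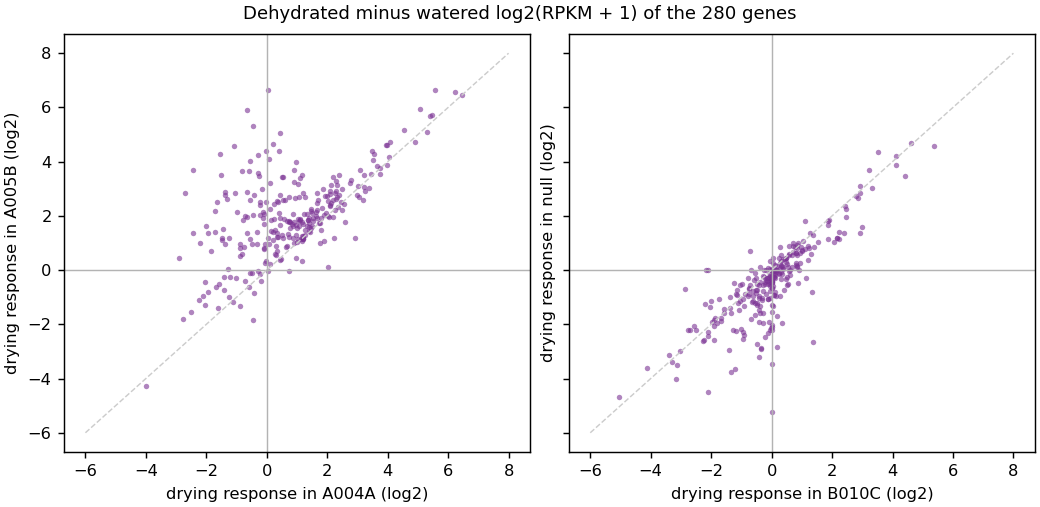
Drying response of the 280 genes, as dehydrated minus watered log2(RPKM + 1), in A005B against A004A (left) and in null against B010C (right), with a dashed line of equal responses. Many points on the left lie above the line near an A004A response of 0, and most points on the right lie around or below 0.

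Sorted by these responses, the genes fell into a few patterns. The most frequent, with 100 genes (3.72% of all tested genes had it), was a level at least 2-fold higher in dried than in watered A005B, but not in A004A. These genes had medians of 6.25 RPKM in dried and 8.05 RPKM in watered A004A, 8.08 RPKM in dried and 0.565 RPKM in watered A005B, 0.323 RPKM in dried and 0.473 RPKM in watered B010C, and 0.311 RPKM in dried and 1.68 RPKM in watered null. Glyma.09G278000 and Glyma.10G043100 belong here, both high in A004A in either treatment and high in A005B in dried leaves alone.

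In 82 genes (1.24% of all tested genes) the dried level was at least 2-fold higher in both A004A and A005B. It was so in neither B010C nor null, all on the log2(RPKM + 1) scale. Their medians were 5.18 RPKM in dried A004A and 5.84 RPKM in dried A005B, against 0.872 RPKM in B010C and 0.759 RPKM in null, and under 1 RPKM in each watered column. Glyma.11G064800 stood at 12.8 RPKM in dried A004A and 18.7 RPKM in dried A005B, against 0.429 RPKM in dried B010C and 0.464 RPKM in dried null. Watered, it reached no more than 0.174 RPKM, the value in A004A. By RPKM alone, its dried level was 73.3 times the watered one in A004A, 25.5 times in B010C and 6.03 times in null. These ratios rest on watered values near the floor. All 4 lines were near the floor when watered, and the lines parted in dried leaves.

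Another 30 genes had dried levels at least 2-fold above the watered ones in each of the 4 lines, as did 11.1% of all tested genes. They held the most abundant transcript of the set. Glyma.13G333100 stood at 549.7 RPKM in dried A004A and 836 RPKM in dried A005B, against 243 RPKM in dried B010C and 169 RPKM in dried null. Watered, it stood at 33.7 RPKM in A004A and 33 RPKM in A005B, against 43.5 RPKM in B010C and 42.6 RPKM in null. Its dried level was 16.3 times the watered level in A004A and 25.3 times in A005B, against 5.58 times in B010C and 3.97 times in null.

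Glyma.13G270100 had the same profile. It stood at 383 RPKM in dried A004A and 426 RPKM in dried A005B, against 118 RPKM in dried B010C and 117 RPKM in dried null, and between 10.8 and 16.7 RPKM in the 4 watered columns. Over the 30 genes the median response on the log2 scale was 3.75 in A004A and 3.96 in A005B, against 2.44 in B010C and 1.91 in null.

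In 35 genes (15.6% of all tested genes had the pattern) the level was at least 2-fold lower in dried leaves of B010C and null, and not at least 2-fold higher in A004A or A005B. Their medians were 3.78 RPKM in dried and 11.4 RPKM in watered A004A, 4.81 RPKM in dried and 6.82 RPKM in watered A005B, 0.753 RPKM in dried and 7.51 RPKM in watered B010C, and 0.786 RPKM in dried and 8.29 RPKM in watered null. By their medians these genes were lower in dried than in watered leaves in all 4 lines. That the fall was smallest in A005B and A004A follows in part from the rule and the definition of the pattern. Glyma.03G170900 stood at 43.8 RPKM in dried A004A and 53.4 RPKM in dried A005B, against 3.2 RPKM in dried B010C and 3.1 RPKM in dried null. Watered, it stood at 159 RPKM in A004A and 32.7 RPKM in A005B, against 16.9 RPKM in B010C and 92.2 RPKM in null. In 6 genes the dried level was at least 2-fold lower in all 4 lines, as in 13.6% of all tested genes. The remaining 33 genes comprised 9 with dried levels at least 2-fold higher in A004A, A005B and 1 of the other lines (1.62% of all tested genes), 2 with that in A004A and not A005B (2.73%), and 22 of no pattern above (63.9%).

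**Figure D5:**
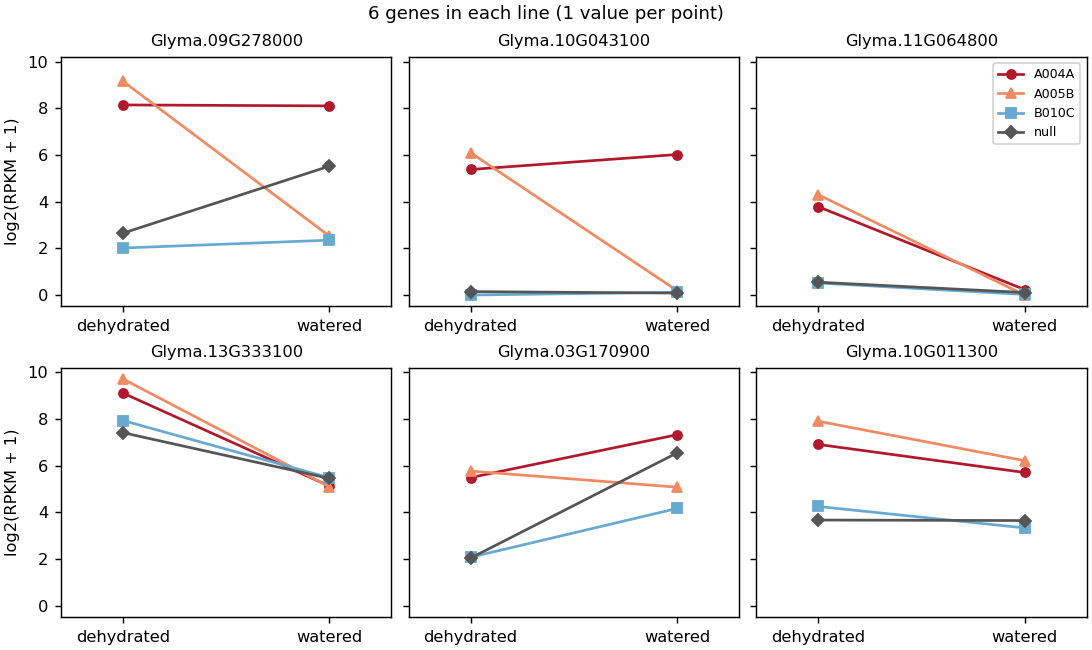
Level of 6 genes, as log2(RPKM + 1), in dehydrated and watered leaves of each line, with 1 value per point. Glyma.09G278000 and Glyma.10G043100 are high in A004A in both treatments and in A005B when dried, Glyma.11G064800 is high in dried A004A and A005B alone, Glyma.13G333100 is higher in dried leaves of all 4 lines, Glyma.03G170900 is lowest in dried B010C and null, and Glyma.10G011300 is higher in A004A and A005B in both treatments.

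The genes were also set out by the watered columns. The 95 genes with watered A004A at least 2-fold above A005B and B010C had medians of 7.25 RPKM in dried and 10.4 RPKM in watered A004A, and 9.9 RPKM in dried and 0.736 RPKM in watered A005B. In B010C they had 0.327 RPKM dried and 0.455 RPKM watered, and in null 0.413 RPKM dried and 3.14 RPKM watered. The watered columns chose these 95 and the dried columns the 280, so the medians describe the genes and test nothing.

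The genes were spread over all 20 chromosomes that the identifiers name, with 9 to 23 genes on each, or 0.631% to 1.08% of the tested genes there. In soybean nomenclature identifiers are numbered along a chromosome. In 23 of the 280 genes, or 8.21%, the next or previous identifier of the table was also one of the 280, against 341 of the 34120 other tested genes, or 0.999%. There were 12 such pairs. Glyma.11G153200 and Glyma.11G153300 had the same profile, at 7.28 and 11 RPKM in dried A004A, 19 and 26 RPKM in dried A005B, and 23.3 and 24.1 RPKM in watered A004A, and under 1 RPKM in the other 5 columns. Glyma.10G207000, between 2 others of the set, did not share its profile with them, as Glyma.10G206900 stood at 1.5 RPKM and Glyma.10G207100 at 0.0808 RPKM in watered A004A, where it stood at 19.1 RPKM. Adjacent copies of 1 gene can share reads, and the labels do not say how such reads were counted.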

How the data were processed

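RNA of soybean leaves was sequenced in 16 samples of 8 groups. The authors deposited RPKM values in 1 table with 1 column per group. Per the submitters' processing notes TopHat was used. Its version, the counting program, the genome build, the annotation and how the 2 samples of a group became 1 value are not given in the sources at hand. Columns were tied to groups by line and treatment, and 0 were left over.

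A gene was tested when 2 or more columns reached 1 RPKM, and values were used as log2(RPKM + 1), which understates the change of low genes. For genes that stayed under 0.3 RPKM, at most 2.36% had the same ratio of one column to another (bins of 0.003 in log2, 28 pairs), so reads were not recovered, depth is unknown and no count model was used. Differences between single columns carry no p-value. Watered lines were compared with limma 3.58.1 in R 4.3.3, with a trend on mean expression, after a test on simulated data. An exact permutation of 2 lines against 2 cannot go below p = 0.333.

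The RefSeq gene table at hand (Glycine_max_v4.0) matched 0 identifiers. The 32 gene lists, 4 marker lists and the promoter motifs planned were therefore not used. Genes to be named were the 12 widest gaps and 8 highest levels among genes of at least 5 RPKM in dried A004A and A005B, those separated in watered leaves, 3 on each side of the threshold, and Glyma.10G011300. Those given in full are a part of these, and neighbours of named genes were added after their values were seen. The genes, lists and tests were chosen with earlier results of these data known.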

Additional observations from a re-analysis of the deposited data

Results flagged for a closer look

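Of the genes of the set chosen for naming, Glyma.09G278000 and Glyma.12G193400 had drying responses of one sign in both A004A and A005B. Their responses were of the other sign in both B010C and null. Glyma.15G251400, just outside the threshold, had such responses too, at 1.8 in A004A, 1.13 in A005B, -0.05 in B010C and -0.79 in null. For Glyma.09G278000 the mean response of A004A and A005B exceeded that of B010C and null by 4.94 on the log2 scale, with single responses of 0.04 in A004A, 6.64 in A005B, -0.34 in B010C and -2.87 in null. For Glyma.12G193400 it exceeded it by 3.49, with 1.18 in A004A, 3.51 in A005B, -0.07 in B010C and -2.22 in null. Neither difference was tested, and the dehydrated values behind them chose the genes. Over the whole set, 47 of the 280 genes had responses of opposite sign in this way, as did 1.1% of all tested genes, a share that the choice of the genes by their dehydrated values bears on.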

How the results depend on the processing

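The number of genes depended on how low values were treated. The rule gave 280 genes, and 690 with a pseudocount of 0.1, with all 280 among them, 94 with a mean of at least 5 RPKM, 794 at a 1.5-fold and 47 at a 4-fold threshold. It gave 330 genes with median-of-ratios scaling, 271 of them of the 280, and 341 with quantile normalization, 273 of them of the 280. With 1 line fewer the rule asks less, and it gave 503 genes without line A004A, 376 without A005B, 606 without B010C and 438 without null. Columns brought to the same sum, chosen after seeing the data, gave 416. The watered limma test had 0 calls under each alternative run, but over 4 columns, or 3 without a line, it is too small for this to show stability. The watered separation of 2 genes (23 of all tested genes) became 1 with a mean of at least 5 RPKM (8 of all genes that passed). Without line A004A it became 5 (154 of all tested genes), without A005B 52 (179) and without null 7 (100). For A004A against B010C alone it became 103 (569). Fewer genes, 94 of the 280, passed the filter on a mean of at least 5 RPKM. With it, 33 genes (35.1%) were at least 2-fold higher in dried leaves in A004A and 73 (77.7%) in A005B. In B010C 24 (25.5%) were, and in null 23 (24.5%). Of all genes that passed, 20.2%, 20.6%, 21.6% and 20.2% were higher, in the same order of lines. Lower were 23 (24.5%) in A004A, 5 (5.32%) in A005B, 26 (27.7%) in B010C and 44 (46.8%) in null. Of all genes that passed, 29.2%, 24.7%, 23.2% and 17.9% were lower. So the shares higher in B010C and null, and lower in B010C, turned to above those of all genes. Watered A004A stood at least 2-fold above watered A005B and B010C in 43 of the 94 genes, where 0.613% of all genes that passed did. With a pseudocount of 0.1, 78 genes (27.9%) were higher in dried B010C and 65 (23.2%) in dried null. Of all tested genes 20.9% and 19.5% were, so these shares too turned from below to above. No filter left each count of the set as it was. No paired analysis was possible because the columns carry no replicate numbers. Depth is unknown, so what it limits could not be stated.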
